A study of Mus musculus with 36 samples.

Results

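The Notch receptors Notch1, Notch2 and Notch3, the ligands Jag1, Jag2 and Dll1, the nuclear partner Rbpj and the target genes Hes1, Hey1 and Nrarp were followed in murine keratinocytes with and without plakophilin 4 (PKP4). These 10 genes were taken by symbol from a table of 55358 genes. WT cells, PKP4-KO cells and Rescue cells, the last being PKP4-KO cells with added GFP-PKP4, were kept in low (LCM) or high calcium medium (HCM) for 24 h or 72 h. PolyA RNA was sequenced in 3 replicate libraries for each of the 12 groups, 36 libraries in all. WT cells carried intact Pkp4 alleles and PKP4-KO cells lacked a critical exon of Pkp4 on both. Both were primary cells of newborn pups from heterozygous intercrosses on a C57BL/6J background. Rescue cells were a puromycin-selected line made from PKP4-KO cells with a lentivirus encoding human PKP4 fused to EGFP, so they carried the same deletion and, in addition, the vector and the selection. The 2 genotypes came from different animals, so the genotype and the cell isolate cannot be told apart. The sources do not say whether the replicates were separate isolations, and p-values measure only the spread between these libraries.

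Notch receptors are cleaved when a ligand on a neighbouring cell binds them, and the released intracellular domain enters the nucleus, where it joins the DNA-binding protein RBPJ and switches on target genes. In the epidermis, Notch signalling is known for promoting the commitment of keratinocytes that leave the basal layer to differentiate, and raised extracellular calcium is the usual way to start junction formation and differentiation of keratinocytes in culture. Hes1 and Hey1 encode transcriptional repressors, and Nrarp encodes an ankyrin repeat protein that is induced by Notch and dampens it.

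The libraries held 13602728 to 22467187 counted reads, with a median of 17353519.5, and a count of 0 at the median depth allows a level of up to 0.173 CPM (3 counts), a limit that covers counting error only. Levels are given as CPM, read counts brought to a common library total after correction by edgeR's trimmed mean of M-values (TMM) factors, as mean ± SD of 3 libraries, and values of single libraries follow their order 1, 2 and 3. Pkp4 itself ranged from 33.4 to 76.3 CPM in the WT libraries, from 6.39 to 14.1 CPM in the PKP4-KO libraries and from 6.52 to 11.9 CPM in the Rescue libraries, and reads from exons outside the deletion count toward it. The row of the transgene ranged from 124 to 561 CPM in Rescue libraries and reached at most 8.27 CPM elsewhere. All 7 basal keratinocyte markers were detected in every genotype, with summed levels of 34491 to 60380 CPM in WT, 40720 to 72843 CPM in PKP4-KO and 23223 to 42075 CPM in Rescue cells. The 6 fibroblast, 5 endothelial, 5 melanocyte and 5 immune markers summed to at most 11.4, 5.41, 2.03 and 3.64 CPM in any library, with Tyr at 0 counts in all libraries and Cd207 at 0 in all libraries too. The 9 measured suprabasal markers summed to 23145 to 24947 CPM in PKP4-KO cells after 72 h in HCM, against 4282 to 11194 CPM in WT cells, and the part of this difference in the results below was not tested. Krtdap, Krt10 and Krt1 reached 14630.5, 4702 and 3839 CPM in PKP4-KO libraries, against at most 6983, 603 and 43.3 CPM in WT libraries. Ivl, Lor and Dsg1a had lower maxima in PKP4-KO than in WT libraries. Ivl ran from 3.03 to 23.9 CPM in PKP4-KO and from 24.6 to 154 CPM in WT libraries, Lor reached 43.9 against 249 CPM and Dsg1a 55.9 against 176 CPM.

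Per kb of the counted gene length, Hes1 and Nrarp stood highest among the 10 genes in WT cells after 24 h in LCM, at 19.8 ± 2.17 and 16.6 ± 1.17 CPM per kb, and their ranges overlapped. Jag2 (14.0 ± 1.12), Jag1 (11.6 ± 0.295) and Notch1 (9.26 ± 0.525) followed, each separate from the next. Dll1 stood at 3.59 ± 0.601 CPM per kb, and Rbpj, Notch3 and Notch2 formed a group between 1.31 and 1.63 CPM per kb in which neighbours overlapped. Hey1 was near the limit of detection at 0.195 ± 0.136 CPM per kb. Notch1 was thus the most abundant receptor RNA and the Jagged genes were the most abundant ligands in this group.

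The DNA just upstream of a receptor gene, Notch3, a ligand gene, Dll1, and a target gene, Nrarp, is shown because each window holds a motif searched here. The windows are RefSeq promoter sequences of up to 250 bases, listed with the build GRCm38.p6 and placed here on GRCm39 by exact match, with bases inside the annotated gene removed. Capitals mark the N box letters CACNAG in Notch3 and Nrarp, a sequence class known to be bound by Hes proteins, and the AP-1 letters TGANTCA in Dll1, each searched on both strands. The windows lie at chr17:32385894-32386114 on the minus strand for Notch3, at chr17:15597195-15597444 on the minus strand for Dll1 and at chr2:25070520-25070769 on the plus strand for Nrarp.
Notch3: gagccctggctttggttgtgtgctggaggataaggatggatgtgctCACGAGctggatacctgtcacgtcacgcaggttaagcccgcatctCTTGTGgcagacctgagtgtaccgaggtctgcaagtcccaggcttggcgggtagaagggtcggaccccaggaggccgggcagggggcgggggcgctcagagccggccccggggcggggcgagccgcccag
Dll1: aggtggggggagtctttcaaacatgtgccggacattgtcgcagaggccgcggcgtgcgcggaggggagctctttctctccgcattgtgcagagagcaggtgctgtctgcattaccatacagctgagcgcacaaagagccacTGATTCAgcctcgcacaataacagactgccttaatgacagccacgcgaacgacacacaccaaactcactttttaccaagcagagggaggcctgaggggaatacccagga
Nrarp: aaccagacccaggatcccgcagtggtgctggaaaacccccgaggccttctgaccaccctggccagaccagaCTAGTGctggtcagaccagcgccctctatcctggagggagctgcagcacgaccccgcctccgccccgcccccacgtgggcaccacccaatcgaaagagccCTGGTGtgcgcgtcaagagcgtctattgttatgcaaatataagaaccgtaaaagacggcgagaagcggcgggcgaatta
The table held 10 windows for 8 of the 10 genes. The N box letters were present upstream of Notch1, Notch2, Notch3 and Nrarp, and in 36.7% of all 32851 windows of the same length. The RBPJ core letters TGGGAA were found upstream of Rbpj alone among the 8 genes and in 21.6% of all windows. The AP-1 letters stood upstream of Dll1 only and in 6.75% of all windows, and no site or binding was measured here.

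Loss of PKP4 was compared with WT first, at each time and in each medium. Notch3 was lower in PKP4-KO cells in all 4 comparisons, and the ligands Jag2 and Dll1 were higher at 24 h and lower after 72 h in HCM. Calls were made with edgeR's quasi-likelihood test and Benjamini-Hochberg adjustment over the 15114 genes that passed the filter on low counts, at an adjusted p below 0.05. All 10 genes passed, although Hey1, with 0 to 41 counts a library, reached the filter's cutoff of 0.576 CPM in only 8 libraries. After 24 h in LCM, 2 of the 10 genes were called higher and 2 lower, where 19.7% and 20.6% of all tested genes were called in the same directions. In HCM at 24 h 4 genes were higher and 3 lower, against 20.7% and 22.2% of all genes. After 72 h, LCM cells had 2 genes higher and 4 lower, against 21.3% and 23.8%. In HCM at 72 h 6 genes were lower, against 29.9% of all genes, and none of the 10 was higher, at an unadjusted p below 0.05 or by DESeq2 either, against 21.9% of all genes. The median log2 fold change of the 10 genes was -0.22, 0.49, -0.39 and -0.84 in these 4 comparisons, and that of all tested genes lay between -0.07 and 0.02. Bulk RNA cannot tell fewer cells of a type from less RNA per cell.

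**Figure D1:**
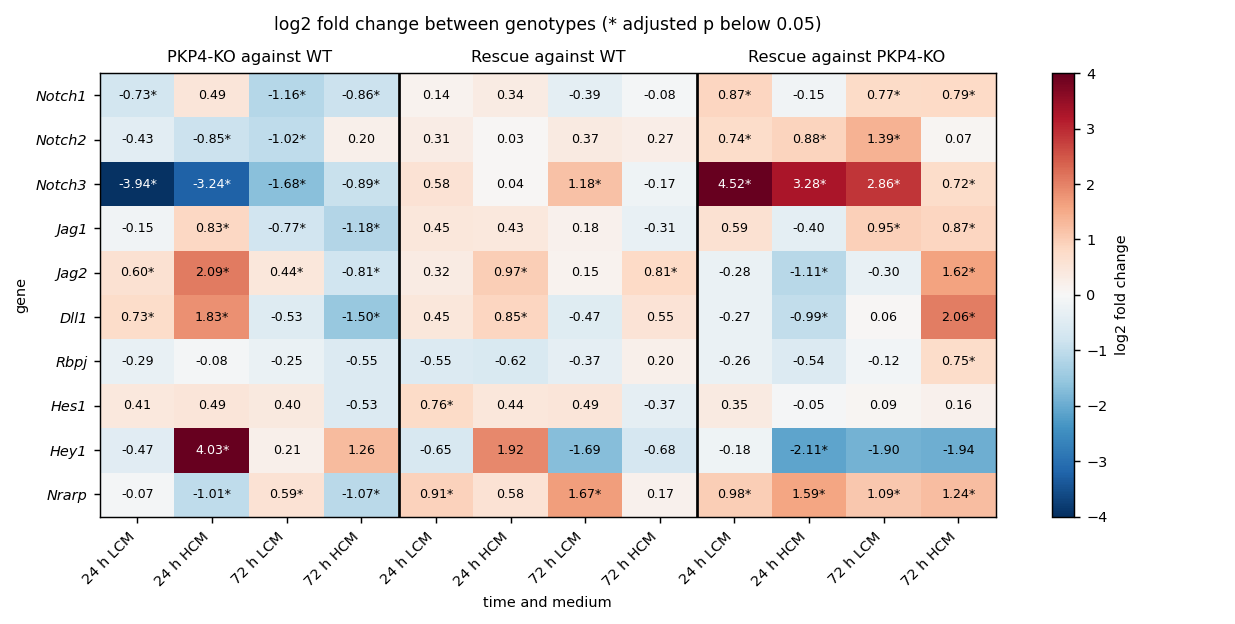
Heat map of the log2 fold change of the 10 Notch pathway genes (rows) between genotypes at each time and medium (columns), with blue for lower and red for higher and an asterisk where the edgeR adjusted p is below 0.05. The Notch3 row runs from -3.94 to -0.89 in PKP4-KO against WT cells and from 0.72 to 4.52 in Rescue against PKP4-KO cells.

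Scaling mattered for these counts. TMM factors in PKP4-KO cells after 72 h in HCM were the lowest of all groups. Leaving them out moved the median log2 fold change of all genes by -0.76 in that comparison, by -0.23 and -0.38 in LCM at 24 h and 72 h and by 0.06 in HCM at 24 h. Without the factors the 10 genes split into 0 higher and 3 lower after 24 h in LCM, 3 and 3 in HCM at 24 h, 0 and 4 in LCM at 72 h, and 0 and 8 in HCM at 72 h. Of all 15114 tested genes 5272, 5742, 6747 and 9401 were called without the factors, in the same order. Among these calls 1797, 3050, 1733 and 1268 were higher and the rest lower.

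Notch3, a receptor gene at chr17:32339794-32385893 (GRCm39, minus strand), showed the largest fall among the 10 genes in PKP4-KO against WT cells at 24 h. After 24 h in LCM its level was 11.05, 10.6 and 12.2 CPM in the WT libraries, 0.493, 0.803 and 0.843 CPM in the PKP4-KO libraries and 18.5, 19.7 and 12.2 CPM in the Rescue libraries. In HCM at 24 h WT libraries held 24.9, 24.6 and 25.0 CPM, PKP4-KO libraries 3.40, 2.43 and 1.99 CPM and Rescue libraries 26.0, 28.1 and 22.4 CPM. The PKP4-KO libraries lay below every WT and Rescue library at 24 h in either medium. The log2 fold change of PKP4-KO against WT was -3.94 (SE 0.30, adjusted p = 1.49e-11) in LCM and -3.24 (SE 0.27, adjusted p = 4.67e-11) in HCM, or 15.3-fold and 9.43-fold lower. At 72 h in LCM the levels were 9.93, 17.0 and 12.6 CPM in WT, 4.27, 3.44 and 4.60 CPM in PKP4-KO and 35.2, 26.8 and 27.96 CPM in Rescue libraries. In HCM at 72 h they were 19.9, 27.4 and 18.4 CPM in WT, 17.5, 10.5 and 7.49 CPM in PKP4-KO and 17.3, 21.9 and 19.2 CPM in Rescue libraries. At 72 h the log2 fold changes were -1.68 (SE 0.25, adjusted p = 3.84e-06) in LCM and -0.89 (SE 0.25, adjusted p = 0.00342) in HCM, and WT and PKP4-KO libraries did not overlap in either medium. Within PKP4-KO cells Notch3 rose from 24 h to 72 h by 2.49 (SE 0.30, adjusted p = 2.84e-07) in LCM and 2.16 (SE 0.26, adjusted p = 1.08e-07) in HCM on the log2 scale. In WT cells the same contrasts gave 0.23 (adjusted p = 0.633) and -0.18 (adjusted p = 0.64). The time course was not compared between genotypes by a test. All 4 calls against WT held when any library was left out, without TMM factors and by DESeq2.

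Rescue cells stood above PKP4-KO cells in Notch3 in every condition. The log2 fold change of Rescue against PKP4-KO was 4.52 (SE 0.30, adjusted p = 1.37e-12) after 24 h in LCM, 3.28 (SE 0.27, adjusted p = 4.09e-11) in HCM at 24 h. It was 2.86 (SE 0.26, adjusted p = 5.66e-10) at 72 h in LCM and 0.72 (SE 0.24, adjusted p = 0.0112) at 72 h in HCM. The last call was lost without PKP4-KO library 3 of that group (log2 fold change 0.48, adjusted p = 0.103), and its libraries overlapped. Against WT, Rescue cells were higher in LCM at 72 h, by 1.18 (SE 0.24, adjusted p = 0.00027) on the log2 scale, and the other 3 differences, 0.58, 0.04 and -0.17, did not pass. High calcium raised Notch3 in WT cells by 1.14 (SE 0.24, adjusted p = 0.00115) at 24 h and 0.73 (SE 0.24, adjusted p = 0.0268) at 72 h. In PKP4-KO cells the rise was 1.84 (SE 0.30, adjusted p = 0.000468) and 1.52 (SE 0.26, adjusted p = 4.67e-05). The WT call at 72 h was lost without any of 3 of its 6 libraries (adjusted p up to 0.149). Both WT calls were lost without TMM factors (0.85, adjusted p = 0.0634 at 24 h and 0.43, adjusted p = 0.33 at 72 h). The PKP4-KO call at 24 h was lost when only the groups compared were fitted (1.87, adjusted p = 0.176). In Rescue cells the calcium response was 0.60 (adjusted p = 0.106) at 24 h and -0.62 (adjusted p = 0.0519) at 72 h. The difference of the 72 h calcium response between Rescue and WT cells was itself significant, at -1.36 (SE 0.33, adjusted p = 0.00595), and without TMM factors it was -0.94 (adjusted p = 0.136).

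Notch1, the most abundant receptor RNA, at chr2:26347915-26406675 (minus strand), was lower in PKP4-KO cells in 3 of the 4 comparisons with WT. After 24 h in LCM it stood at 125, 129.97 and 139.9 CPM in WT, 51.7, 79.5 and 107 CPM in PKP4-KO and 158, 159 and 117 CPM in Rescue libraries. At 72 h LCM gave 102, 143 and 111 CPM in WT, 47.4, 49.0 and 63.5 CPM in PKP4-KO and 111, 67.0 and 94.5 CPM in Rescue libraries. WT libraries lay above PKP4-KO libraries at both times, by log2 fold changes of -0.73 (SE 0.22, adjusted p = 0.00996) and -1.16 (SE 0.23, adjusted p = 0.000136) for PKP4-KO against WT. The 24 h call was lost without PKP4-KO library 1 (log2 fold change -0.50, adjusted p = 0.0954). In HCM the levels at 72 h were 88.8, 83.1 and 59.2 CPM in WT, 50.4, 33.1 and 43.5 CPM in PKP4-KO and 76.6, 77.8 and 64.8 CPM in Rescue libraries. PKP4-KO differed from WT by -0.86 (SE 0.23, adjusted p = 0.00231). At 24 h in HCM the direction differed, with 88.7, 61.3 and 92.3 CPM in WT, 127, 119 and 93.9 CPM in PKP4-KO and 99.8, 106 and 102 CPM in Rescue libraries. The log2 fold change of 0.49 (SE 0.22) did not pass (adjusted p = 0.0778). Rescue cells were higher than PKP4-KO cells in LCM at 24 h (0.87, adjusted p = 0.003), LCM at 72 h (0.77, adjusted p = 0.00677) and HCM at 72 h (0.79, adjusted p = 0.00341). None of the 4 comparisons of Rescue with WT passed. The LCM call at 72 h was lost without Rescue library 1 (log2 fold change 0.60, adjusted p = 0.0611). Notch1 fell in WT cells with high calcium, by -0.71 (SE 0.22, adjusted p = 0.031) at 24 h and -0.62 (SE 0.22, adjusted p = 0.0446) at 72 h. Both calls were lost when any of 4 of the 6 libraries was left out (adjusted p up to 0.19 and 0.228). In PKP4-KO cells the same contrast was 0.52 (adjusted p = 0.26) at 24 h. The difference from WT was 1.22 (SE 0.32, adjusted p = 0.0221), a call lost without any of 6 of the 12 libraries (adjusted p up to 0.0822) and without TMM factors (1.47, adjusted p = 0.0882).

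Notch2, at chr3:97920800-98057677 (plus strand), was lower in PKP4-KO than in WT cells after 24 h in HCM and after 72 h in LCM. In the former it stood at 20.8, 25.7 and 20.2 CPM in WT, 9.92, 10.3 and 17.0 CPM in PKP4-KO and 19.9, 22.6 and 25.7 CPM in Rescue libraries. This gave a log2 fold change of PKP4-KO against WT of -0.85 (SE 0.25, adjusted p = 0.00649). In the latter it stood at 12.98, 15.4 and 11.95 CPM in WT, 3.53, 8.72 and 7.75 CPM in PKP4-KO and 18.5, 21.5 and 12.4 CPM in Rescue libraries. The log2 fold change was -1.02 (SE 0.25, adjusted p = 0.00182). PKP4-KO libraries lay below both other genotypes in these 2 conditions. At 72 h in HCM the means were 14.7 ± 1.81 CPM in WT, 16.8 ± 3.61 CPM in PKP4-KO and 17.7 ± 1.30 CPM in Rescue cells, and the groups of WT and PKP4-KO overlapped. High calcium raised Notch2 in PKP4-KO cells at 72 h by 1.34 (SE 0.26, adjusted p = 0.000224) but not detectably in WT cells (0.12, adjusted p = 0.77). The difference between the genotypes was 1.22 (SE 0.36, adjusted p = 0.0385), a call lost without any of 7 of the 12 libraries (adjusted p up to 0.124) and without TMM factors (0.86, adjusted p = 0.127). Rescue cells were higher than PKP4-KO cells by 0.74 (adjusted p = 0.021) after 24 h in LCM, 0.88 (adjusted p = 0.00511) in HCM at 24 h and 1.39 (adjusted p = 6.49e-05) at 72 h in LCM. The call after 24 h in LCM was lost without PKP4-KO library 2 or Rescue library 3 (adjusted p up to 0.123).

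**Figure D2:**
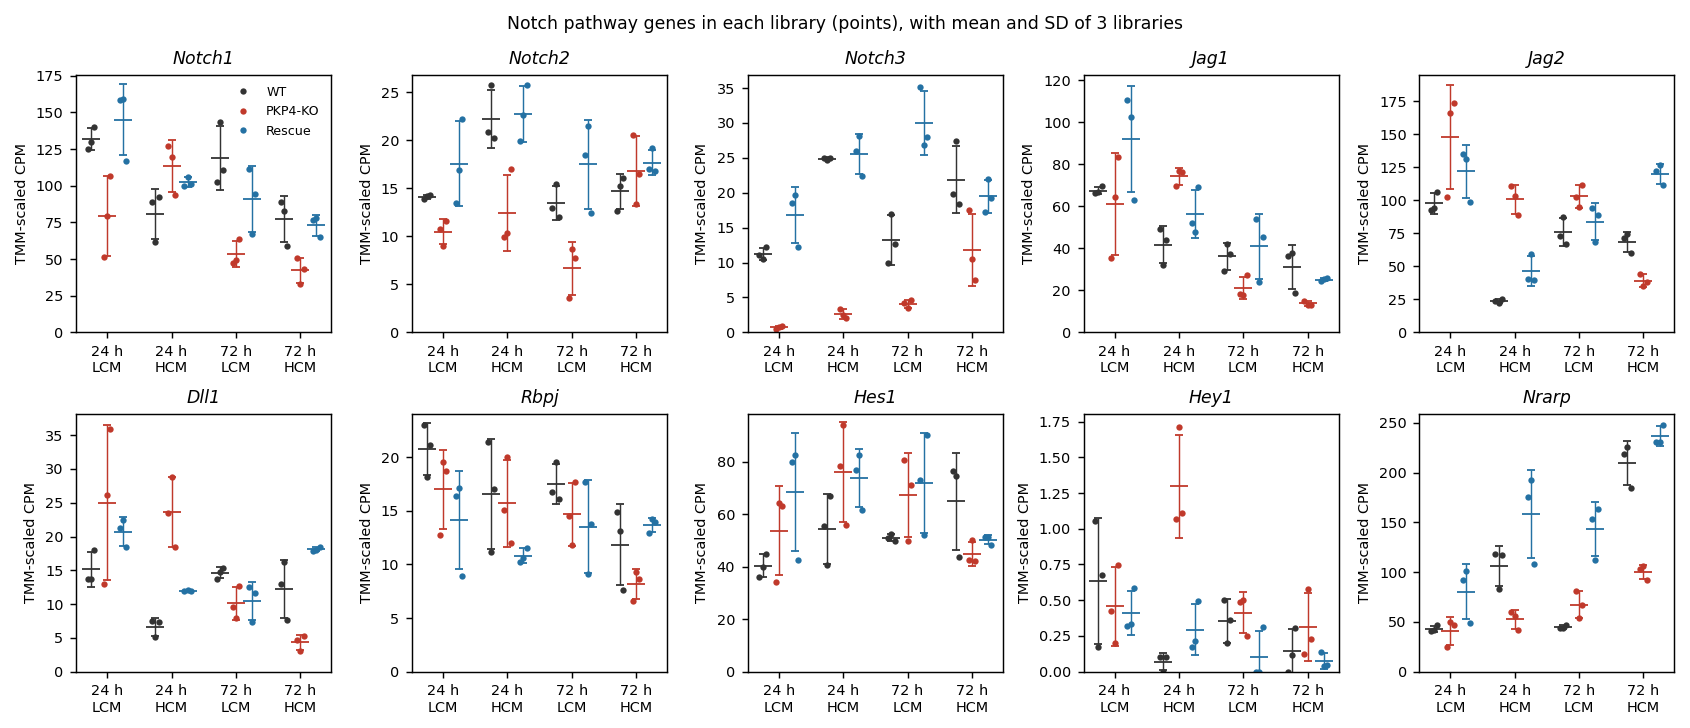
Level of each of the 10 genes in TMM-scaled CPM (vertical axis, linear from 0) by time and medium (horizontal axis), 1 point per library, with a bar for the mean and whiskers for the SD of 3 libraries. PKP4-KO libraries lie lowest in Notch3 at 24 h, between 0.493 and 3.40 CPM, and WT libraries lie lowest in Jag2 after 24 h in HCM, between 21.9 and 25.3 CPM.

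Among the ligands, Jag2 at chr12:112871421-112893437 (minus strand) was higher in PKP4-KO than in WT cells in HCM at 24 h and lower there at 72 h. In HCM at 24 h it stood at 24.0, 21.9 and 25.3 CPM in WT, 111, 103 and 88.9 CPM in PKP4-KO and 40.6, 59.7 and 39.5 CPM in Rescue libraries. In LCM at 24 h it stood at 92.5, 93.9 and 107 CPM in WT, 102, 166 and 174 CPM in PKP4-KO and 135, 131 and 98.7 CPM in Rescue libraries. WT cells thus held far less Jag2 in HCM than in LCM at 24 h. The log2 calcium response was -2.04 (SE 0.19, adjusted p = 4.2e-09) in WT, -0.55 (SE 0.18, adjusted p = 0.0991) in PKP4-KO and -1.39 (SE 0.18, adjusted p = 2.79e-06) in Rescue cells. The response differed between PKP4-KO and WT cells by 1.49 (SE 0.25, adjusted p = 0.000459), and that call held when any library was left out. At 72 h in HCM the levels were 71.4, 74.6 and 60.1 CPM in WT, 44.3, 35.0 and 38.0 CPM in PKP4-KO and 122, 127 and 112 CPM in Rescue libraries. In LCM at 72 h they were 73.0, 87.5 and 67.0 CPM in WT, 103, 94.6 and 112 CPM in PKP4-KO and 94.3, 68.3 and 89.0 CPM in Rescue libraries. In HCM at 72 h the genotypes did not overlap and PKP4-KO was the lowest and Rescue the highest. The log2 calcium response at 72 h was -0.14 (adjusted p = 0.607) in WT, -1.40 (SE 0.18, adjusted p = 1.18e-06) in PKP4-KO and 0.52 (SE 0.18, adjusted p = 0.0325) in Rescue cells. The Rescue call was lost without any of 4 of the 6 libraries (adjusted p up to 0.187) and without TMM factors (0.63, adjusted p = 0.104). It was also lost without the filter on low counts (adjusted p = 0.113) and with only the groups compared (adjusted p = 0.0509). The PKP4-KO response differed from that of WT by -1.25 (SE 0.25, adjusted p = 0.002).

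PKP4-KO against WT gave log2 fold changes for Jag2 of 2.09 (SE 0.19, adjusted p = 2.46e-10) at 24 h in HCM, 0.60 (SE 0.18, adjusted p = 0.00838) at 24 h in LCM. The values were 0.44 (SE 0.18, adjusted p = 0.044) at 72 h in LCM and -0.81 (SE 0.18, adjusted p = 0.000485) at 72 h in HCM. The HCM calls held when any library was left out. The LCM call at 24 h was lost without PKP4-KO library 2 or 3 (adjusted p up to 0.0641), and that at 72 h without any of 5 of the 6 libraries (adjusted p up to 0.168). Without TMM factors neither LCM value passed (0.39, adjusted p = 0.258 and 0.06, adjusted p = 0.882). Rescue cells lay between the other genotypes after 24 h in HCM, above WT by 0.97 (SE 0.18, adjusted p = 0.000176) and below PKP4-KO by -1.11 (SE 0.18, adjusted p = 9.59e-06). After 72 h in HCM Rescue cells were above both, by 0.81 (SE 0.18, adjusted p = 0.000872) against WT and 1.62 (SE 0.18, adjusted p = 2.21e-08) against PKP4-KO. Jag2 rose from 24 h to 72 h in HCM in WT cells by 1.53 (adjusted p = 6.84e-07) and in Rescue cells by 1.37 (adjusted p = 1.68e-06), and fell in PKP4-KO cells by 1.37 (adjusted p = 4.7e-07).

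Dll1, a Delta ligand gene at chr17:15587276-15597134 (minus strand), had the same directions as Jag2 in HCM. After 24 h in HCM it stood at 7.47, 5.10 and 7.28 CPM in WT, 23.5, 28.8 and 18.5 CPM in PKP4-KO and 11.9, 12.1 and 11.9 CPM in Rescue libraries. After 72 h in HCM it stood at 12.9, 16.2 and 7.69 CPM in WT, 4.70, 3.05 and 5.22 CPM in PKP4-KO and 17.9, 17.9 and 18.5 CPM in Rescue libraries. The genotypes were fully separate in both conditions, with PKP4-KO highest at 24 h and lowest at 72 h. The log2 fold changes of PKP4-KO against WT were 1.83 (SE 0.28, adjusted p = 4.68e-06) and -1.50 (SE 0.30, adjusted p = 0.00016), and both calls held when any library was left out. In LCM the levels at 24 h were 13.7, 13.64 and 18.1 CPM in WT and 13.04, 26.1 and 35.9 CPM in PKP4-KO libraries. The log2 fold change of 0.73 (SE 0.27, adjusted p = 0.0337) was lost without any of 4 of the 6 libraries (adjusted p up to 0.303). Dll1 fell with high calcium in WT cells at 24 h by 1.19 on the log2 scale (SE 0.28, adjusted p = 0.00354), and gave -0.09 (adjusted p = 0.964) in PKP4-KO and -0.80 (adjusted p = 0.0572) in Rescue cells. The difference between PKP4-KO and WT, 1.103, did not pass (adjusted p = 0.128). At 72 h high calcium lowered Dll1 in PKP4-KO cells by 1.22 (SE 0.30, adjusted p = 0.00265). In Rescue cells it was higher by 0.78 (SE 0.27, adjusted p = 0.0365), a call lost without any of 5 of the 6 libraries (adjusted p up to 0.195). Rescue cells were above PKP4-KO cells at 72 h in HCM by 2.06 (SE 0.30, adjusted p = 1.54e-06) and below them at 24 h in HCM by -0.99 (SE 0.27, adjusted p = 0.00472). Against WT they were higher at 24 h in HCM by 0.85 (SE 0.28, adjusted p = 0.0277), a call lost without any of 4 of the 6 libraries (adjusted p up to 0.131). From 24 h to 72 h Dll1 fell in PKP4-KO cells by 2.44 (SE 0.30, adjusted p = 1.53e-07) in HCM and 1.31 (SE 0.28, adjusted p = 0.0007) in LCM.

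Jag1, at chr2:136923373-136958693 (minus strand), was higher in PKP4-KO than in WT cells after 24 h in HCM and lower at 72 h in both media. The levels after 24 h in HCM were 49.4, 31.9 and 44.2 CPM in WT, 69.6, 76.9 and 76.3 CPM in PKP4-KO and 52.2, 47.8 and 69.1 CPM in Rescue libraries. They were 36.2, 37.7 and 19.0 CPM, 15.0, 13.2 and 13.1 CPM and 24.4, 25.3 and 25.7 CPM after 72 h. WT and PKP4-KO libraries did not overlap at either time. The log2 fold change of PKP4-KO against WT was 0.83 (SE 0.28, adjusted p = 0.0184) at 24 h and -1.18 (SE 0.30, adjusted p = 0.0016) at 72 h. The 24 h call was lost without WT library 2 (0.67, adjusted p = 0.0957) and without TMM factors (0.86, adjusted p = 0.0748). In LCM at 72 h it was -0.77 (SE 0.28, adjusted p = 0.0285), lost without any of 4 of the 6 libraries (adjusted p up to 0.11), and at 24 h -0.15 (adjusted p = 0.71). Jag1 also fell with culture time in several groups. The fall from 24 h to 72 h was -2.43 (SE 0.30, adjusted p = 1.52e-07) in PKP4-KO cells in HCM, -1.52 (SE 0.29, adjusted p = 0.000195) in PKP4-KO cells in LCM. It was -1.17 (SE 0.29, adjusted p = 0.00301) and -1.16 (SE 0.28, adjusted p = 0.00581) in Rescue cells in HCM and LCM, and -0.90 (SE 0.28, adjusted p = 0.0405) in WT cells in LCM. The WT call was lost without any of its 6 libraries (adjusted p 0.0566 to 0.192) and the Rescue call in LCM without Rescue library 2 at 72 h (adjusted p = 0.0594). Rescue cells were above PKP4-KO cells at 72 h, by 0.87 (SE 0.29, adjusted p = 0.0112) in HCM and 0.95 (SE 0.29, adjusted p = 0.00827) in LCM. The LCM libraries overlapped and that call was lost without Rescue library 1 (0.71, adjusted p = 0.0797). High calcium gave no call for Jag1 in any genotype at either time by edgeR in the fit of all libraries. DESeq2 called it lower in Rescue cells at 72 h (-0.69, adjusted p = 0.047), and fits of only the groups compared called it lower in WT cells at 24 h (-0.67, adjusted p = 0.0398) and PKP4-KO cells at 72 h (-0.62, adjusted p = 0.0433).

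Rbpj, which encodes the DNA-binding partner of the cleaved receptors and lies at chr5:53623494-53814704 (plus strand), had group means from 8.18 ± 1.40 CPM in PKP4-KO cells after 72 h in HCM to 20.8 ± 2.45 CPM in WT cells after 24 h in LCM, and no comparison with WT passed in the fit of all libraries. At 72 h in HCM it stood at 14.9, 13.1 and 7.58 CPM in WT, 6.60, 9.30 and 8.63 CPM in PKP4-KO and 12.97, 14.2 and 14.0 CPM in Rescue libraries. WT library 3 fell among the PKP4-KO libraries, and the log2 fold change of PKP4-KO against WT was -0.55 (SE 0.28, adjusted p = 0.106). It passed without TMM factors (-1.36, adjusted p = 0.00338) and without WT library 3 (-0.78, adjusted p = 0.0239). Rescue against WT cells after 24 h in HCM gave -0.62 (adjusted p = 0.0996), which passed without WT library 2 (-0.83, adjusted p = 0.0367). At 72 h in HCM Rescue cells were higher than PKP4-KO cells by 0.75 (SE 0.28, adjusted p = 0.0203). That call was lost without PKP4-KO library 1 (0.62, adjusted p = 0.0913). Within PKP4-KO cells Rbpj fell from 24 h to 72 h in HCM by 0.95 (SE 0.28, adjusted p = 0.00556). It also fell at 72 h with high calcium, by 0.85 (SE 0.28, adjusted p = 0.0209), a call lost without HCM library 1 or LCM library 3 (adjusted p up to 0.109).

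Of the target genes, Nrarp at chr2:25070770-25073351 (plus strand) was higher in HCM than in LCM in WT and Rescue cells. Its levels after 24 h in LCM were 40.8, 41.7 and 46.4 CPM in WT, 25.2, 50.03 and 47.3 CPM in PKP4-KO and 91.9, 101 and 48.9 CPM in Rescue libraries. In HCM at 24 h it stood at 118, 83.2 and 117 CPM in WT, 60.0, 55.8 and 41.9 CPM in PKP4-KO and 175, 192 and 108 CPM in Rescue libraries. WT and PKP4-KO libraries overlapped in LCM and were separate in HCM, with log2 fold changes of -0.07 (adjusted p = 0.838) and -1.01 (SE 0.24, adjusted p = 0.00114). At 72 h in LCM the levels were 43.6, 43.6 and 47.3 CPM in WT, 80.7, 54.1 and 67.5 CPM in PKP4-KO and 154, 112 and 163 CPM in Rescue libraries. In HCM at 72 h they were 219, 226 and 184 CPM in WT, 103, 106 and 91.9 CPM in PKP4-KO and 231, 231 and 248 CPM in Rescue libraries. PKP4-KO was therefore above WT in LCM and below it in HCM at 72 h, by 0.59 (SE 0.24, adjusted p = 0.0483) and -1.07 (SE 0.24, adjusted p = 0.00064). The LCM call was lost without any of 5 of the 6 libraries (adjusted p up to 0.195), with a replicate block (adjusted p = 0.0564) and without TMM factors (0.21, adjusted p = 0.608). The order of the 12 groups ran from Rescue and WT after 72 h in HCM at 236 ± 9.94 and 209.7 ± 22.3 CPM down to the LCM groups of WT and PKP4-KO at 24 h, which did not differ beyond their spread.

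High calcium raised Nrarp in WT cells by 1.31 (SE 0.25, adjusted p = 0.000314) at 24 h and 2.23 (SE 0.25, adjusted p = 1.27e-07) at 72 h on the log2 scale. In Rescue cells the rise was 0.98 (SE 0.24, adjusted p = 0.00644) and 0.72 (SE 0.24, adjusted p = 0.0277). The Rescue calls were lost without HCM library 2 or LCM library 3 at 24 h (adjusted p up to 0.067) and without any of 4 of the 6 libraries at 72 h (adjusted p up to 0.15). In PKP4-KO cells the response was 0.36 (adjusted p = 0.554) and 0.57 (adjusted p = 0.0709), and DESeq2 called Nrarp higher there at 72 h. At 72 h the response was smaller than in WT by -1.66 (SE 0.34, adjusted p = 0.00262) in PKP4-KO and by -1.50 (SE 0.34, adjusted p = 0.00305) in Rescue cells, and both calls held when any library was left out. Without TMM factors the Rescue difference was -1.101 (adjusted p = 0.0913). Rescue cells exceeded PKP4-KO cells in all 4 conditions, by 0.98 (adjusted p = 0.00225) and 1.59 (adjusted p = 5.25e-06) at 24 h in LCM and HCM and by 1.09 (adjusted p = 0.000668) and 1.24 (adjusted p = 8.19e-05) at 72 h. After 24 h in LCM the libraries overlapped, and that call was lost when only the groups compared were fitted (0.997, adjusted p = 0.0614). Against WT, Rescue cells were higher in LCM, by 0.91 (adjusted p = 0.00633) at 24 h, a call lost without Rescue library 2 (adjusted p = 0.0578), and 1.67 (SE 0.25, adjusted p = 4.08e-06) at 72 h. In HCM at 24 h the value was 0.58 (adjusted p = 0.086), which passed without Rescue library 3 (0.79, adjusted p = 0.0249).

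**Figure D3:**
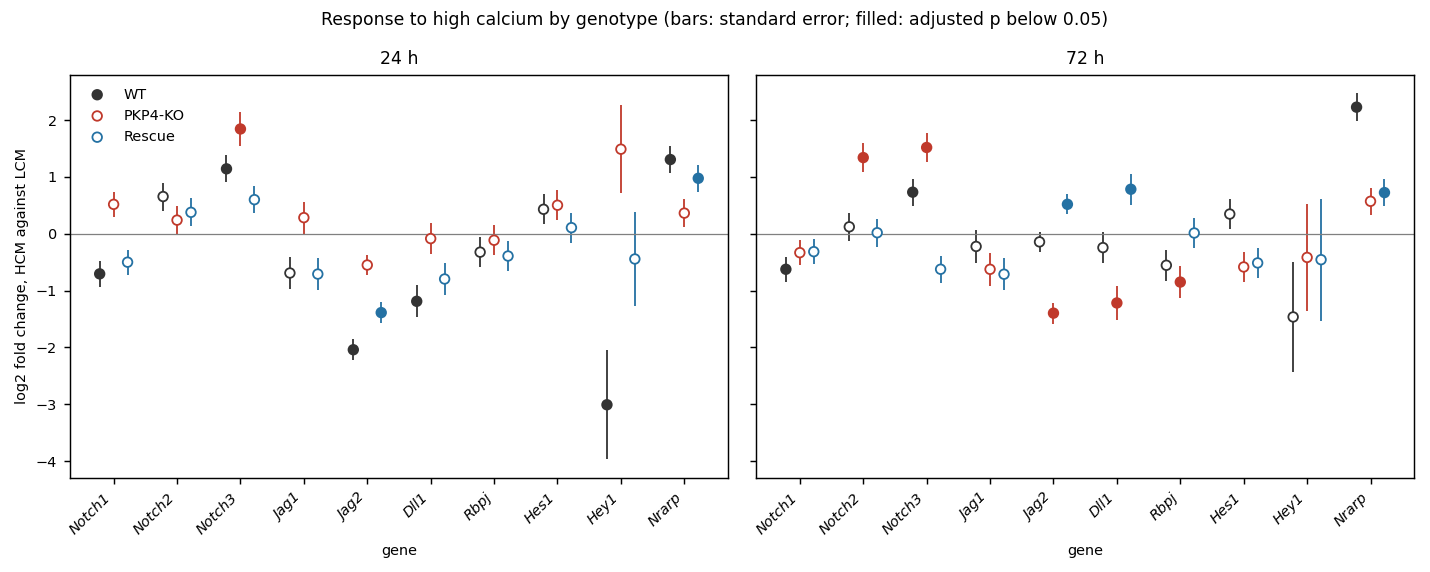
Log2 fold change of HCM against LCM (vertical axis) for each of the 10 genes (horizontal axis) in WT, PKP4-KO and Rescue cells, at 24 h on the left and 72 h on the right, with bars for the standard error and filled symbols where the edgeR adjusted p is below 0.05. Jag2 lies at -2.04 in WT and -0.55 in PKP4-KO cells at 24 h, and Nrarp lies at 2.23 in WT and 0.57 in PKP4-KO cells at 72 h.

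Hes1, at chr16:29882134-29886643 (plus strand), had means between 40.4 ± 4.41 and 76.2 ± 19.1 CPM and no call between PKP4-KO and WT or between Rescue and PKP4-KO cells in the fit of all libraries. At 72 h in HCM the value of PKP4-KO against WT was -0.53 (adjusted p = 0.0931), which passed without TMM factors (-1.35, adjusted p = 0.00171) and without WT library 3 (-0.76, adjusted p = 0.0227). Rescue against PKP4-KO cells there gave 0.16 (adjusted p = 0.594), which passed without TMM factors (1.35, adjusted p = 0.00128). After 24 h in LCM it stood at 36.1, 40.1 and 44.96 CPM in WT, 34.1, 64.3 and 63.0 CPM in PKP4-KO and 80.2, 82.7 and 42.7 CPM in Rescue libraries. Rescue library 3 lay within the WT range, and the Rescue against WT value of 0.76 (SE 0.26, adjusted p = 0.0335) was lost without any of 5 of the 6 libraries (adjusted p up to 0.155). The other call was a fall from 24 h to 72 h in PKP4-KO cells in HCM by 0.76 (SE 0.27, adjusted p = 0.0166), from 78.4, 94.1 and 56.1 to 42.5, 50.3 and 42.1 CPM. That call was lost without any of 3 of the 6 libraries (adjusted p up to 0.102).

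Hey1, at chr3:8726956-8732385 (minus strand), had few counts in every library. PKP4-KO cells after 24 h in HCM held 23, 41 and 15 counts (1.07, 1.71 and 1.11 CPM), WT cells 2, 0 and 2 counts and Rescue cells 3, 4 and 10 counts. In LCM at 24 h WT libraries held 20, 3 and 13 counts and PKP4-KO libraries 6, 4 and 16 counts. PKP4-KO libraries lay above those of both other genotypes in HCM and overlapped WT libraries in LCM. From summed counts, 79 against 4, the ratio of PKP4-KO to WT in HCM at 24 h was 17.8, with an exact 95% interval of 6.67 to 66.8 that covers counting error only. The fitted log2 fold change was 4.03 (SE 0.95, adjusted p = 0.000958), a call that held when any library was left out. Rescue cells were lower than PKP4-KO cells by -2.11 (SE 0.80, adjusted p = 0.0358), a call lost without any of 5 of the 6 libraries (adjusted p up to 0.126). WT cells had fewer Hey1 counts in HCM than in LCM at 24 h, 4 against 36, a ratio of 0.116 (interval 0.03 to 0.324, adjusted p = 0.0333), lost without any of 5 of the 6 libraries (adjusted p up to 0.152). In PKP4-KO cells the counts were 79 against 26, a ratio of 2.86 (1.82 to 4.64), which did not pass in the fit (adjusted p = 0.388). The calcium response differed between the genotypes by 4.49 on the log2 scale (SE 1.24, adjusted p = 0.0331), a call lost without any of 8 of the 12 libraries (adjusted p up to 0.12). At 72 h the groups held 0 to 10 counts a library. Over both times 4 libraries had 0 counts, which allows up to 0.11 to 0.221 CPM. From 24 h to 72 h in HCM PKP4-KO cells fell from 79 to 7 counts, a ratio of 0.222 after scaling for depth and TMM (interval 0.0863 to 0.478). The edgeR call (adjusted p = 0.0477) was lost without any of 5 of the 6 libraries (adjusted p up to 0.163). Without the filter on low counts it was lost too (adjusted p = 0.0778). The same fit lost the calls of Rescue against PKP4-KO (adjusted p = 0.0696) and of the WT calcium response (adjusted p = 0.0631). It also lost the difference of the calcium response (adjusted p = 0.0631), as did the fit of only the groups compared (adjusted p = 0.0633).

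Notch3 and Nrarp were higher in Rescue than in PKP4-KO cells in all 4 conditions, and Jag2 and Dll1 were lower at 24 h and higher at 72 h in HCM. Against PKP4-KO, 4 of the 10 genes were higher in Rescue cells after 24 h in LCM, where 18.2% of all tested genes were higher and 15.5% lower. In HCM at 24 h 3 were higher and 3 lower, against 21.7% and 19% of all genes, and at 72 h in LCM 5 were higher, against 23.3% higher and 18.3% lower. After 72 h in HCM 7 were higher, against 37.2% higher and 29.5% lower. In the 3 comparisons without a lower call, none of the 10 was lower at an unadjusted p below 0.05 or by DESeq2 either. Without TMM factors the counts were 4 higher and 0 lower, 3 and 2, 5 and 0, and 9 and 0 in the same order, with shifts of the median of all genes by 0.09, 0.06, 0.35 and 1.17. Of all 15114 tested genes 4138, 5268, 6333 and 11663 were then called. Among these calls 2546, 2983, 4872 and 9876 were higher and the rest lower. Against WT, 2 of the 10 genes were higher in Rescue cells after 24 h in LCM (13.5% of all genes higher and 11.4% lower) and 2 in HCM at 24 h (11.8% and 11.4%). There were 2 at 72 h in LCM (17.9% and 14.6%) and 1 at 72 h in HCM (19.5% and 16.7%). None was lower by edgeR at the adjusted threshold or by DESeq2, and Rbpj alone, at 24 h in both media, was lower at an unadjusted p below 0.05. Without TMM factors 0, 1, 2 and 2 genes were higher in this order, with median shifts of -0.14, 0.12, -0.03 and 0.40. Of all 15114 tested genes 3011, 2835, 3999 and 6064 were then called. Among these calls 1324, 1876, 2213 and 4855 were higher and the rest lower. The comparisons share groups and are not independent of each other.

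In high against low calcium, WT cells had 2 of the 10 genes higher and 4 lower at 24 h, against 7.69% and 6.48% of all tested genes, and 2 higher and 1 lower at 72 h, against 10.6% and 10.8%. PKP4-KO cells had 1 gene higher at 24 h, against 1.44% of all genes higher and 1.4% lower, and 2 higher and 3 lower at 72 h, against 12.9% and 19.7%. At 24 h in PKP4-KO cells Jag2 was lower at an unadjusted p below 0.05 and by DESeq2. Rescue cells had 1 higher and 1 lower at 24 h, against 6% and 5.96%, and 3 higher at 72 h, against 13% higher and 12% lower, where Notch3 and Jag1 were lower at an unadjusted p below 0.05 and by DESeq2. Without TMM factors the splits were 1 and 4, 1 and 1, 1 and 0, 2 and 6, 0 and 1, and 0 and 0 in this order, with median shifts of -0.29, -0.30, 0.01, -0.69, -0.03 and 0.13. Of all 15114 tested genes 2359, 3846, 237, 7929, 1305 and 2700 were then called. Among these calls 587, 986, 124, 648, 647 and 1707 were higher and the rest lower. The difference of the calcium response between PKP4-KO and WT cells was positive for 3 genes at 24 h (Notch1, Jag2 and Hey1), against 1.23% of all genes positive and 2.79% negative. At 72 h it was positive for Notch2 and negative for Jag2 and Nrarp, against 1.85% and 3.88%. No gene was negative at 24 h by edgeR or DESeq2, and Nrarp was at an unadjusted p below 0.05. Between Rescue and WT cells edgeR called 0 of the 10 genes at 24 h, with Jag2 alone at an unadjusted p below 0.05 and 0 by DESeq2, against 0.0132% and 0.0529% of all genes. At 72 h Notch3 and Nrarp were negative, against 6.81% of all genes positive and 7.77% negative, and Jag2 and Dll1 were positive at an unadjusted p below 0.05 and by DESeq2. Without TMM factors the splits of these 4 differences were 2 positive and 0 negative, 0 and 2, 0 and 0, and 0 and 0, with median shifts of 0.29, -0.38, 0.25 and 0.43. Of all 15114 tested genes 365, 1305, 7 and 2294 were then called. Among these calls 207, 89, 5 and 1715 were positive and the rest negative.

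Of the comparisons of 72 h with 24 h, PKP4-KO cells in HCM had the most calls among the 10 genes. From 24 h to 72 h in HCM, 2 of the 10 genes (Notch3 and Nrarp) rose and 7 fell in PKP4-KO cells, against 24.3% and 31.4% of all tested genes. The Nrarp value there was 0.93 (SE 0.24, adjusted p = 0.00209) and -0.15 (adjusted p = 0.679) without TMM factors, which moved the median of all genes by -1.07. In LCM 2 rose and 3 fell, against 12.4% and 13.7%. WT cells had 3 genes higher in HCM (Jag2, Dll1 and Nrarp), against 9.16% higher and 8.69% lower, with Notch2 lower at an unadjusted p below 0.05 only. The Dll1 call (0.89, adjusted p = 0.0263) was lost without any of 4 of the 6 libraries (adjusted p up to 0.15). It was also lost without TMM factors (adjusted p = 0.211) and with only the groups compared (adjusted p = 0.137). The Nrarp call was lost without TMM factors (0.74, adjusted p = 0.106). In LCM WT cells had 1 gene lower, against 5.29% higher and 4.66% lower, with none higher at an unadjusted p below 0.05 or by DESeq2. Rescue cells had 1 higher and 1 lower in HCM, against 13.6% and 10.7%, and 2 higher and 2 lower in LCM, against 6.84% and 2.96%. Without TMM factors the splits were 1 and 8, 1 and 5, 1 and 1, 0 and 0, 1 and 1, and 0 and 1 in this order, with median shifts in the last 5 of -0.37, -0.24, -0.22, 0.05 and -0.11. Of all 15114 tested genes 10454, 5110, 2616, 1265, 2862 and 1172 were then called. Among these calls 1315, 1069, 786, 345, 1720 and 730 were higher and the rest lower.

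The other parts of the pathway were described by a list of 57 genes, of which 47 were tested. In PKP4-KO against WT cells 11 of the 47 were higher and 12 lower after 24 h in LCM, 12 and 13 in HCM at 24 h, 6 and 17 at 72 h in LCM, and 6 and 21 at 72 h in HCM. Over all genes tested, 19.7% were higher and 20.6% lower after 24 h in LCM, 20.7% and 22.2% in HCM at 24 h, 21.3% and 23.8% at 72 h in LCM, and 21.9% and 29.9% at 72 h in HCM. The median log2 fold changes of the list were -0.08, -0.05, -0.29 and -0.54. Adam10, the protease that makes the ligand-induced cut, was lower in all 4 comparisons. It went from 54.3 ± 9.68 CPM in WT to 23.7 ± 5.24 CPM in PKP4-KO cells after 24 h in HCM (log2 fold change -1.20, SE 0.23, adjusted p = 8.57e-05). Of the 7 gamma-secretase genes, which make the second cut, 3, 4, 4 and 1 were lower in the same order and 1 was higher at 72 h in HCM, where Psen2 fell by 1.79 (SE 0.35, adjusted p = 0.000119). Of the 9 nuclear corepressor genes, 4 were higher and 1 lower after 24 h in LCM, 5 and 1 in HCM at 24 h, 1 and 1 at 72 h in LCM, and 1 and 3 at 72 h in HCM. The coactivator Maml2 was lower in all 4 comparisons, from 9.42 ± 0.639 to 0.983 ± 0.483 CPM after 24 h in LCM and from 5.78 ± 1.23 to 0.0802 ± 0.0697 CPM after 72 h in HCM, a level below the limit of 3 counts. The fringe glycosyltransferase gene Lfng was higher at 24 h in HCM (0.69, SE 0.15, adjusted p = 0.000493) and lower at 72 h in HCM (-1.14, SE 0.16, adjusted p = 1.44e-06) and in LCM (-0.87, SE 0.15, adjusted p = 4.05e-05). Dlk2, which encodes a non-canonical Delta-like protein, was higher at 24 h in HCM, at 30.6 ± 1.53 against 5.03 ± 0.713 CPM. Hes6 was lower in all 4 comparisons, from 31.3 ± 2.37 to 7.25 ± 0.7 CPM at 72 h in HCM. Mib1, a ubiquitin ligase that drives ligand endocytosis, was lower in 3 comparisons, by -2.03 (SE 0.38, adjusted p = 6.67e-05) at 72 h in HCM. With high calcium in WT cells 3 of the 47 were higher and 9 lower at 24 h, and 2 and 10 at 72 h, against 7.69% and 6.48% of all genes at 24 h and 10.6% and 10.8% at 72 h. Dlk2, Lfng and Dtx4 fell at 24 h with Dlk2 at -1.57 (SE 0.16, adjusted p = 2.99e-08).

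**Figure D4:**
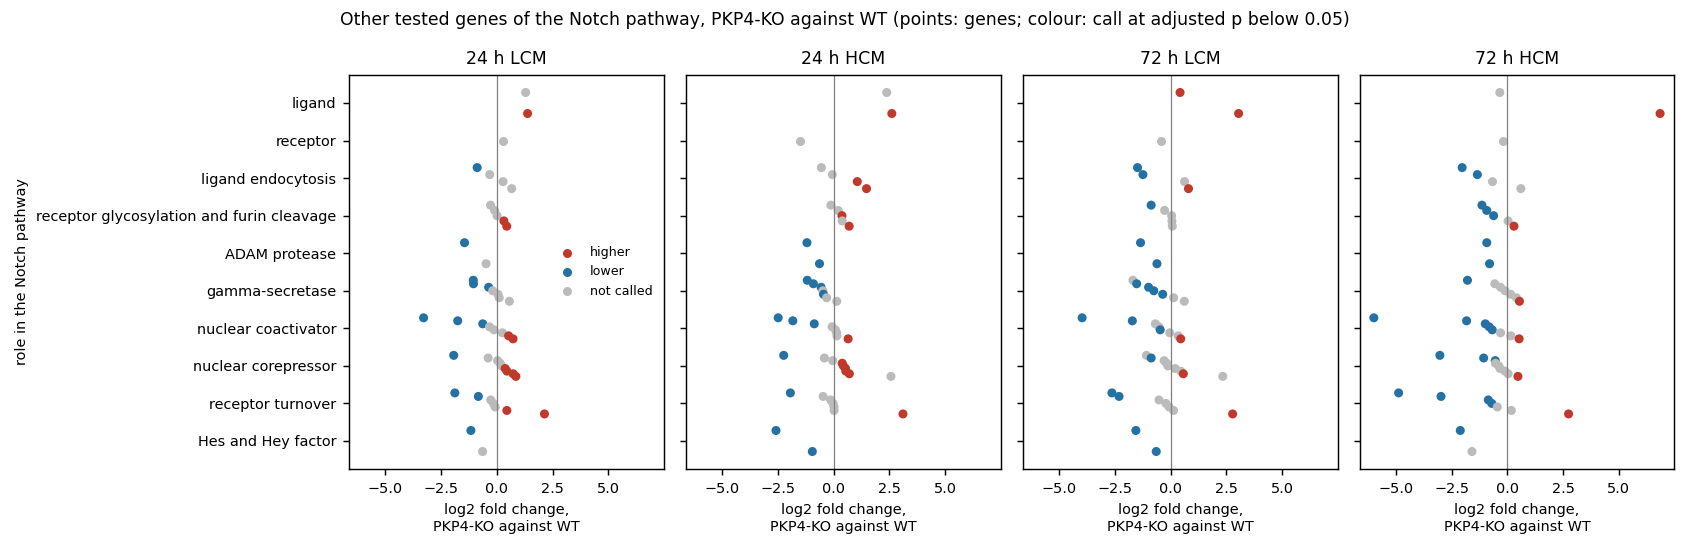
Log2 fold change of PKP4-KO against WT cells (horizontal axis) for 47 other tested genes of the Notch pathway, 1 point per gene, grouped by role (vertical axis) and coloured red where higher, blue where lower and grey where not called, with 1 panel per time and medium. Adam10 lies between -1.45 and -0.92 in all panels, and more genes are blue than red at 72 h in HCM (21 against 6).

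Notch1, Nrarp and Jag1 share chromosome 2 with Pkp4, which lies at chr2:58991088-59185552. The 157 other tested genes within 5 Mb of Notch1 had median log2 fold changes of PKP4-KO against WT between -0.48 and -0.42 in the 4 comparisons. Of these genes 39.5% to 51.0% were called lower, against 20.6% to 29.9% of all tested genes. Another 4.46% to 8.92% were called higher, against 19.7% to 21.9% of all tested genes. The 137 genes within 5 Mb of Nrarp, many of them the same, had medians between -0.46 and -0.43. Notch1 fell further than these medians in 3 comparisons, and Nrarp lay above them in LCM and below them in HCM. The 29 genes near Jag1 had medians between -0.07 and 0.35. The part of the neighbourhood in the values of Notch1 and Nrarp was not tested.

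Across the 12 group means, the genes most like each member were found by Pearson's r on log2 CPM as a description, among 10908 protein-coding genes that averaged 1 CPM or more. Notch3 was most like Ankrd22 (0.97), Card14 (0.97) and Cldn4 (0.96), a tight junction claudin gene. Nrarp was most like Rhou (0.97), Scpep1 (0.95) and Clic5 (0.94). Notch1 was most like Prag1 (0.94), the hemidesmosome collagen gene Col17a1 (0.93) and the integrin gene Itga6 (0.92). The genes given here for Notch2 are Erbb2 (0.93) and Mpzl2 (0.91). Jag2 was most like Scmh1 (0.95), Tcf7 (0.94) and Slc12a4 (0.93). Jag1 was most like Mre11a (0.95), Zfp518b (0.95) and Kif23 (0.94), a kinesin gene of cell division. The lists of Dll1, led by Gpc4 (0.95), and Rbpj, led by Ppp6r1 (0.96), reached similar values, and Hes1 had no gene above 0.77 (Kptn). Hey1, with its few counts, reached 0.86 with Adh5. Points in these correlations share libraries and depth.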

How the data were processed

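Strand-specific polyA RNA libraries of murine keratinocytes were sequenced by the study. Per the submitters' processing notes the authors used HISAT2 2.1.0, SAMtools 1.10 and featureCounts 2.0.0 with mm39/GRCm39, to which the GFP-PKP4 sequence was added, and deposited raw read counts per gene. The strand setting of the counting is not given in the sources used here, so reads of overlapping antisense genes may not be separated. Groups were taken from the labels. Their titles hold HD or LD in place of a time and do not spell these out. HD was read as 72 h, LD as 24 h and GFP as Rescue cells. Any other difference between HD and LD cultures cannot be told apart from time. Counts were tested with edgeR 4.0.16 in R 4.3.3: filterByExpr, TMM, 1 model with 12 group means and 24 residual degrees of freedom, quasi-likelihood tests of 28 comparisons and Benjamini-Hochberg adjustment over 15114 genes at 0.05. The SE is the log2 fold change divided by the square root of F. The script was tested on simulated data. Alternatives were DESeq2 1.42.0, library sizes without TMM factors, no filter, only the groups compared, a replicate block and each library left out. Gene positions come from GENCODE vM39, which held 98.9% of the identifiers. All 10 genes were named throughout. Other pathway genes were named per role as the called gene with the largest change and a mean of at least 1 CPM, and some are not reported here, as is 1 gene most like Notch2. The members and lists were chosen with earlier results of these data known. Same-numbered libraries correlated at r = -0.59 to 0.68 over 72 pairs, and all 3 pairs exceeded 0.1 in 2 of 24 comparisons.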

Additional observations from a re-analysis of the deposited data

Results flagged for a closer look

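The calcium response, the log2 fold change of HCM against LCM, of 6 of the 10 genes differed between genotypes by edgeR's quasi-likelihood test of the difference itself, with Benjamini-Hochberg adjustment. At 24 h the response of PKP4-KO cells exceeded that of WT cells by 1.22 for Notch1 (adjusted p = 0.0221), 1.49 for Jag2 (adjusted p = 0.000459) and 4.49 for Hey1 (adjusted p = 0.0331), the last from few counts. Of all tested genes 1.23% were called positive and 2.79% negative there. The Notch1 call was lost without any of 6 of the 12 libraries and without TMM factors. The Hey1 call was lost without any of 8 of the 12. At 72 h the PKP4-KO response exceeded that of WT cells by 1.22 for Notch2 (adjusted p = 0.0385) and lay below it by -1.25 for Jag2 (adjusted p = 0.002) and -1.66 for Nrarp (adjusted p = 0.00262). Of all tested genes 1.85% were positive and 3.88% negative. The Notch2 call was lost without any of 7 of the 12 libraries and without TMM factors. The response of Rescue cells at 72 h lay below that of WT cells by -1.36 for Notch3 (adjusted p = 0.00595) and -1.50 for Nrarp (adjusted p = 0.00305). Both calls were lost without TMM factors (adjusted p = 0.136 and 0.0913). Of all tested genes 6.81% were positive and 7.77% negative in this comparison, and 0.0132% and 0.0529% in the same comparison at 24 h. The difference for Jag2 thus had opposite signs at 24 h and 72 h, and the change between the times was not tested.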

How the results depend on the processing

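Of 104 calls over the 28 comparisons, 66 held when any library was left out and 38 did not. Without TMM factors 26 calls were lost, 15 without the filter, 21 with only the groups compared, 3 with the replicate block and 0 with DESeq2. Genes without a value in a fit were not scored. Calls gained were 12 without TMM factors, among them Rbpj and Hes1 in PKP4-KO against WT at 72 h in HCM, 12 with only the groups compared, 13 with DESeq2, 1 with the replicate block, 0 without the filter and 29 over the fits that left out a library. Without TMM factors the change of PKP4-KO cells from 24 h to 72 h in HCM turned for Notch2 from 0.45 to -0.59 (adjusted p = 0.0363) and for Nrarp from 0.93 to -0.15 (adjusted p = 0.679). These 2 reversals are counted in neither the 26 calls lost nor the 12 gained. The cause was not tested. The number of the 10 genes called moved by over 1.5 times in the following cases. Without TMM factors it was 1, 2 and 0 for Rescue against WT after 24 h in HCM, 72 h in HCM and 24 h in LCM, 8 for the calcium response of PKP4-KO cells at 72 h, 1 and 0 for that of Rescue cells at 24 h and 72 h, 0 for WT cells and 1 for Rescue cells between the times in LCM, and 0 for the difference of the calcium response between Rescue and WT cells at 72 h. With only the groups compared it was 2 for PKP4-KO against WT and 2 for Rescue against PKP4-KO after 24 h in LCM, 1 for the calcium response of WT cells at 72 h and 0 for that of PKP4-KO cells at 24 h, 2 and 0 between the times in LCM for PKP4-KO and Rescue cells, 8 for Rescue cells in HCM, and 1 for the difference of the response between PKP4-KO and WT cells at 24 h. Without the filter it was 1 for the calcium response of WT cells and 0 for that of Rescue cells at 72 h, and 0 between the times for WT cells in LCM. With DESeq2 it was 2 and 4 for the calcium responses of PKP4-KO and Rescue cells at 24 h, 5 for that of Rescue cells at 72 h, and 4 for the difference between Rescue and WT cells at 72 h. With each library left out in turn it ranged from 2 to 4 and from 3 to 4 for PKP4-KO against WT in LCM at 24 h and 72 h. For Rescue against WT it ranged from 1 to 2 in HCM at each time and from 0 to 3 after 24 h in LCM, and for Rescue against PKP4-KO from 3 to 6 at 72 h in LCM. For the calcium response it ranged from 1 to 3 in WT cells at 72 h, 1 to 2 in PKP4-KO cells and 1 to 2 in Rescue cells at 24 h, and 0 to 3 in Rescue cells at 72 h. Between the times in LCM it was 0 in WT cells throughout and ranged from 3 to 6 in PKP4-KO and 2 to 4 in Rescue cells. For the differences of the response it ranged from 1 to 4 for PKP4-KO at 24 h and 2 to 4 for Rescue at 72 h.

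The replicate block left 0 calls between the times for WT cells in LCM (Jag1, adjusted p = 0.0521) and ended the calls of Nrarp in PKP4-KO against WT at 72 h in LCM (adjusted p = 0.0564) and Notch1 in the calcium response of WT cells at 72 h (adjusted p = 0.0536), and ended no other call. It added Notch2 between the times in PKP4-KO cells in LCM (-0.68, adjusted p = 0.0479). In the 2 comparisons whose same-numbered libraries deviated together, a block with only the groups compared, chosen after seeing the data, gave 5 calls for Rescue against PKP4-KO at 72 h in LCM and 7 for the calcium response of WT cells at 24 h. Depth limits Hey1 most, with at most 41 counts in a library.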
